A study of Macaca fascicularis with 3 samples.

Results

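The axon guidance ligands and receptors are the semaphorins with their plexin and neuropilin receptors, the SLIT proteins with ROBO receptors, the netrins with DCC and UNC5 receptors, and the ephrins with Eph receptors. Members were chosen by gene symbol alone, leaving out ROBO2 and EPHA7, which gave 59 of 38550 rows in each table of nuclei and 69 of 33368 rows in the table of cells. UNC50 and UNC5CL entered by spelling only, which leaves 57 guidance genes among the 59. These are 18 semaphorins, 7 plexins, 2 neuropilins, 3 SLIT ligands, 1 ROBO receptor, 2 netrins, 5 netrin receptors, 4 A-type and 3 B-type ephrins, 7 EPHA receptors and 5 EPHB receptors. The other 10 members carry a symbol in the cell table only. RNA was measured in muscle of Macaca fascicularis, the cynomolgus macaque, in 3 libraries, 1 per group: nuclei of the extraocular muscle (EOM), which moves the eye, nuclei of a thigh muscle, the quadriceps femoris (QFM), and whole cells of EOM. The labels name no genotype or treatment and give neither the number nor the age of the animals. The QFM title says nuclei while its files are named as cells, so a ratio of EOM to QFM may also compare preparations.

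Guidance proteins steer the growing axon tip: secreted class 3 semaphorins, SLITs and netrins act at a distance, while ephrins and the transmembrane semaphorins act between touching cells. Most can repel, and netrin acting through DCC can attract. In muscle, SEMA3A made by satellite cells and myofibres is known as a cue for motor axons at the endplate, and ephrins with their Eph receptors take part in the sorting of motor axons to their muscles. The same families pattern blood vessels, where NRP1 is also a co-receptor for vascular endothelial growth factor.

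Barcodes were sorted by marker UMIs (unique molecular identifiers, which count RNA molecules) into marker-positive classes, and a class name below stands for barcodes positive for that list (fibro-adipogenic-like, endothelial-like and so on). The kept nuclei numbered 13975 in EOM and 10525 in QFM, with medians of 2811 and 4508 UMIs, and 7111 EOM cells had a median of 1142. Myonuclei, the nuclei of the muscle fibre, numbered 5989 in EOM and 7318 in QFM. Another 2046 EOM barcodes with myofibre markers lay in clusters of low depth and were kept apart, against 0 in QFM. RNA of other cell types was present in every class: summed myofibre markers in non-muscle classes stood at 13.4% to 30.6% of their myonuclear level in EOM and at 11.8% to 32.2% in QFM. Of the EOM endothelial barcodes, 1227 of 1315 held at least 3 UMIs of myosin heavy chain, with MYH13 leading in 75.4%, against 212 of 973 in QFM. In the other direction, summed fibro-adipogenic markers in myonuclei were 350.5 counts per 1000000 UMIs (CPM) in EOM and 98.6 in QFM, and all 13 of these markers were above 0 in both. The endothelial list stood at 293.6 and 87.1 and the Schwann list at 82.1 and 18.3. The 2 nuclei libraries shared 51 barcodes, and EOM nuclei and EOM cells shared 0.

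Levels are sums of UMIs over a class divided by the class total, in CPM, with exact Poisson intervals. Since CPM is not per gene length, ratios were taken for the same gene between groups of barcodes, and any ranking of genes within a group is by counts alone. A log2 ratio of 2 sums has a conditional exact binomial interval. All intervals are at 95% and cover counting error only, and since each group is a single library, nothing was tested and no value has a spread between replicates. A member counts as measured in a comparison with at least 20 counts over both sums, unless one sum is 0 and 3 counts in it would already reach the other's level, and as called with a ratio of at least 2-fold.

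In myonuclei, most guidance genes stood higher in EOM than in QFM. Of 52 members measured, 34 were at least 2-fold higher in EOM (65.4%), 2 were at least 2-fold lower (3.85%) and 16 lay between. Over all 18636 genes measured in myonuclei, 31.2% were at least 2-fold higher and 10.1% at least 2-fold lower, and the median log2 ratio was 0.35, against 1.77 over the members. When both libraries were scaled to the median ratio of all genes, 29 members were higher and 4 lower, beside 24.1% and 15.6% of all genes. The 7 members with too few counts were EFNA2, EFNA3, EFNB3, EPHA1, EPHA8, SEMA4C and UNC5CL.

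**Figure D1:**
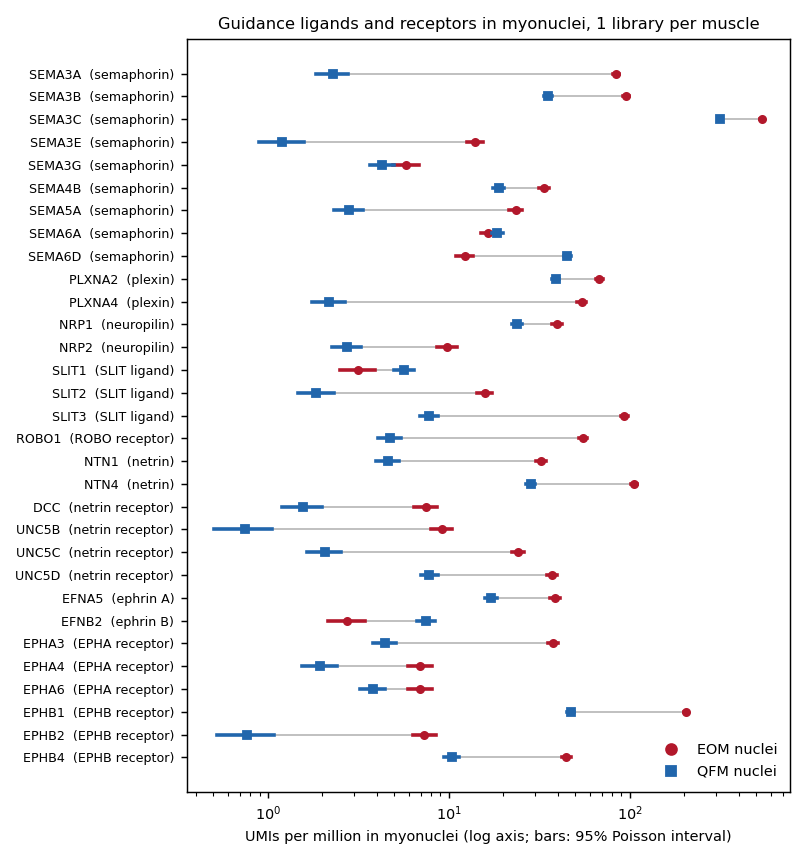
Level of each guidance gene with at least 5 CPM in myonuclei of either muscle, in CPM on a log axis. Red circles are EOM and blue squares QFM, each 1 library, with 95% Poisson intervals as bars. The widest gaps belong to SEMA3A and PLXNA4, and SEMA6D, EFNB2, SLIT1 and SEMA6A are the members drawn with the QFM point on the right.

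Because markers of other cell types were also higher in EOM myonuclei, each level was set beside a scaled level: the member's CPM in another class times the share of that class's marker level found in myonuclei, taking the class that gave the most. The class rule itself lowers those markers in myonuclei, so the scaled level is a low estimate. Of the 34 members higher in EOM, 21 stood at 2 or more times their scaled level and 13 below that. EPHB1, UNC5A and UNC5B were at least as high in EOM myonuclei as in every other class compared. The part that RNA from other cells has in the ratios was not tested.

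Among semaphorins, 17 of 18 were measured, with 8 higher in EOM, 1 lower and 8 between. SEMA3A, a secreted repellent of motor and sensory axons, had 2198 counts in EOM and 95 in QFM, or 84.0 and 2.28 CPM. Its log2 ratio was 5.202 (4.91 to 5.51), and its EOM level was 12.4 times the scaled level. The fibro-adipogenic class held 146 CPM of SEMA3A in EOM and 20.04 in QFM, so in QFM the gene was low in the stroma too.

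SEMA3C, a secreted semaphorin that also acts in heart and vessel development, had the most counts of any member in myonuclei, 14024 in EOM and 13188 in QFM. At 535.9 and 316.8 CPM it differed by a log2 ratio of 0.76 (0.72 to 0.79), under 2-fold. SEMA3B stood at 95.9 and 35.4 CPM (1.44) and SEMA3E, whose receptor is plexin D1, at 14.0 and 1.20 CPM (3.55). SEMA5A, a transmembrane semaphorin, had 23.4 and 2.81 CPM (3.06), but its EOM level was only 1.19 times the scaled level. SEMA3D, at 3.02 and 0.34 CPM (3.17), stood at 1.004 times the scaled level. SEMA3G and SEMA4B differed by less than 2-fold, with log2 ratios of 0.43 and 0.83. Of the semaphorins under 5 CPM, SEMA4A (1.35), SEMA6B (2.29) and SEMA7A (1.25) were higher in EOM, and SEMA3F (0.93), SEMA4F (-0.80), SEMA4G (-0.53) and SEMA5B (-0.44) did not reach 2-fold.

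SEMA6D, a transmembrane semaphorin that binds plexin A1, went the other way, with 320 counts in EOM and 1885 in QFM. Its 12.2 and 45.3 CPM gave a log2 ratio of -1.89 (-2.06 to -1.72), and its QFM level was 98.7 times the scaled level. SEMA6A, of the same class, stood at 16.5 and 18.5 CPM (-0.17), and its direction turned when the shallow EOM barcodes were added (0.66), when called doublets were kept (0.09) and when barcodes were thinned (0.16).

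Of the 7 plexins, the semaphorin receptors, 5 were higher in EOM and 2 between. PLXNA4, which works with neuropilin 1 in the SEMA3A receptor, had 1417 counts in EOM and 91 in QFM. Its 54.2 and 2.19 CPM gave a log2 ratio of 4.63 (4.32 to 4.95) at 10.9 times the scaled level. PLXNA2, a receptor for class 6 semaphorins, was abundant in both libraries at 68.0 and 39.0 CPM (0.80). PLXNB2, a receptor for class 4 semaphorins, rested on 105 and 10 counts (4.06). PLXND1 (2.73), PLXNA1 (1.32) and PLXNA3 (1.20) were also higher in EOM at under 5 CPM, and PLXNB1 was not (-0.41). The neuropilins, which bind class 3 semaphorins for the plexins, stood at 39.6 and 23.9 CPM for NRP1 (0.73) and at 9.78 and 2.74 CPM for NRP2 (1.84). With the shallow EOM barcodes added, NRP1 passed 2-fold (1.74). NRP1 was at 1.77 times its scaled level in EOM, with macrophages at 1594 CPM and endothelial nuclei at 882 CPM in the same library.

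SLIT3, a ligand of ROBO receptors, had 2447 counts in EOM and 324 in QFM myonuclei. Its 93.5 and 7.78 CPM gave a log2 ratio of 3.59 (3.42 to 3.76) at 1.85 times the scaled level, and 1141 of its EOM counts came from the 164 junctional nuclei described further on. SLIT2 stood at 15.8 and 1.85 CPM (3.09), at 1.01 times the scaled level. SLIT1, best known from the nervous system, was lower in EOM at 3.13 and 5.67 CPM (-0.86), which passed 2-fold only under the median ratio (-1.20) and TMM (-1.24) scalings. ROBO1, the SLIT receptor, had 55.5 and 4.71 CPM (3.56). Satellite nuclei held 972 CPM of ROBO1 in EOM, and the myonuclear level was 1.10 times the scaled level.

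All 7 netrins and netrin receptors were higher in EOM myonuclei. NTN4, a netrin that binds laminin in basement membranes, had 105 and 28.3 CPM (log2 ratio 1.89, 1.79 to 1.99), and NTN1, the classical chemoattractant, had 32.4 and 4.61 CPM (2.81). Both stood above 2 times their scaled level, at 2.20 and 2.89. DCC, the attractive netrin receptor, stood at 7.45 and 1.56 CPM (2.25), at 1.93 times the scaled level.

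The UNC5 receptors mediate repulsion by netrin. UNC5B, also a vascular receptor, had 239 and 31 counts, or 9.13 and 0.74 CPM (3.62, 3.07 to 4.21). Its EOM level was 42.9 times the scaled level, and endothelial nuclei of that library held 8.41 CPM. UNC5A rested on 120 and 53 counts (1.85), at 29.9 times the scaled level. UNC5C stood at 24.2 and 2.07 CPM (3.55) and UNC5D at 37.1 and 7.81 CPM (2.25), the latter at 0.78 times the scaled level, set by satellite nuclei with 916 CPM.

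Of the 12 Eph receptors 10 were measured, and 8 of these were higher in EOM. EPHB1, a receptor for B-type ephrins, was counted 5373 and 1962 times in the 2 sums, at 205.3 and 47.1 CPM. Its log2 ratio was 2.12 (2.05 to 2.20), with the EOM level 49.6 times the scaled one. EPHB4, known as the venous receptor for ephrin B2, stood at 44.7 and 10.4 CPM (2.11) and 13.1 times the scaled level, and EPHB2 at 7.34 and 0.77 CPM (3.25) and 1.28 times. EPHA3 had 37.6 and 4.42 CPM (3.09), yet 0.61 times the scaled level, with the fibro-adipogenic class at 1328 CPM. EPHA4, a receptor that guides limb motor axons, had 6.96 and 1.95 CPM (1.84) at 0.89 times, and EPHA6 had 6.96 and 3.80 CPM (0.87). EPHB3, EPHA5 and EPHA2, each under 2 CPM, had log2 ratios of 2.44, 2.20 and 1.70, and EPHB6 of 0.57.

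Of the 7 ephrins 4 were measured. EFNA5, a membrane-anchored ligand of EPHA receptors, stood at 38.7 and 17.1 CPM in EOM and QFM myonuclei (1.18, 1.04 to 1.32) and fell short of 2-fold under the median ratio (0.84) and TMM (0.80) scalings. EFNA4 (1.18) and EFNB1 (equal to within 0.01) were under 2 CPM. EFNB2, the transmembrane ligand of EPHB4, was lower in EOM, with 72 and 313 counts. Its 2.75 and 7.52 CPM gave -1.45 (-1.84 to -1.08), which became -0.28 when the shallow EOM barcodes were added. UNC50, a member by spelling only, stood at 22.2 and 22.8 CPM. The EFNB2 level in EOM was 0.83 and that in QFM 6.43 times the scaled one.

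Fibre types were read from the leading myosin heavy chain, the chain with the most UMIs in a nucleus, at least 3 over all chains. Of the EOM fibro-adipogenic barcodes, 1314 of 1400 also held that many, with MYH13 leading in 74.4%. A leading chain may thus come from RNA of other nuclei, and how often was not tested. EOM held 3400 nuclei led by MYH13, the fast extraocular chain, 1428 led by MYH15, a chain known from extraocular muscle and muscle spindles, 794 led by MYH3, named as the embryonic chain, and 161 led by MYH7, the slow chain. QFM held 4412 led by MYH3, 2871 led by MYH7 and 0 led by MYH13 or MYH15. MYH1, MYH2 and MYH8 have no symbol in these tables, so the row named MYH3 may hold reads of other chains.

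Within EOM, 48 members were measured between MYH15-led and MYH13-led nuclei, with 1 at least 2-fold higher and 8 at least 2-fold lower in the MYH15-led, beside 3.97% and 5.63% of all genes. The member higher in MYH15-led nuclei was SEMA3G, a semaphorin known from arterial endothelium, at 10.2 CPM against 2.71 (log2 ratio 1.92, 1.34 to 2.51). Lower in MYH15-led nuclei were PLXNA2 at 28.1 and 89.99 CPM (-1.68), EFNA5 at 15.8 and 50.4 CPM (-1.67), SEMA3A at 25.8 and 78.6 CPM (-1.61), SEMA6D at 4.81 and 14.6 CPM (-1.61) and SLIT3 at 42.5 and 111 CPM (-1.38). PLXNA1, EFNA4 and SEMA3D, each under 5 CPM, made up the 8. The chain groups include the junctional nuclei, which held 1141 counts of SLIT3 against 1306 in other EOM myonuclei. Their part in the SLIT3 ratios between chains was not tested. PLXNA4 and NTN4 were higher in MYH15-led nuclei by less than 2-fold, at 74.0 against 43.8 CPM and at 145 against 80.9 CPM.

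**Figure D2:**
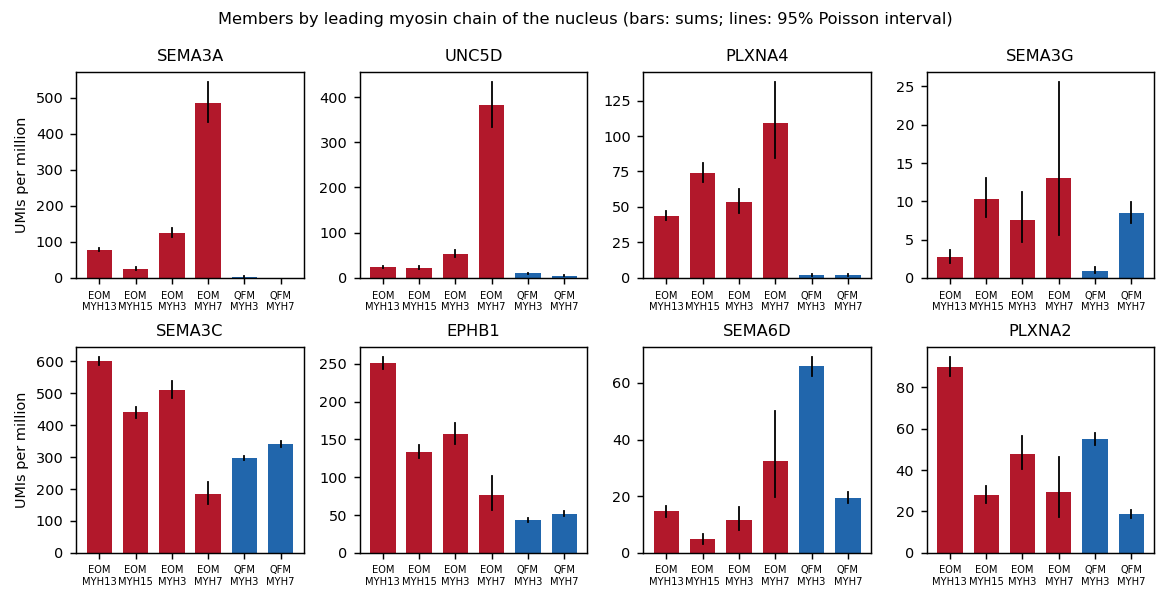
CPM of 8 guidance genes in myonuclei grouped by leading myosin chain, with EOM in red and QFM in blue; bars are sums over the nuclei of 1 library and lines 95% Poisson intervals, and each panel has its own axis from 0. SEMA3A and UNC5D are highest in MYH7-led nuclei of EOM, at 486 and 382 CPM, and SEMA3C and EPHB1 in MYH13-led nuclei, at 602 and 251 CPM.

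The MYH7-led nuclei of EOM carried high levels of SEMA3A and of the netrin receptor UNC5D. SEMA3A stood at 486 CPM, from 299 counts in 66 of 161 nuclei, against 78.6 CPM in MYH13-led (log2 ratio 2.63, 2.44 to 2.81) and 125 CPM in MYH3-led nuclei (1.96). A UMI of SEMA3A was present in 41.0% of MYH7-led nuclei and in 5.93% of endothelial nuclei of the same library, or in 21.9% and 1.65% after thinning to 1000 UMIs, which left out 6 and 41 shallower nuclei. Endothelial nuclei held 32.2 CPM of SEMA3A and fibro-adipogenic nuclei 146 CPM. UNC5D stood at 382 CPM against 23.2 in MYH13-led (4.04, 3.80 to 4.28) and 53.8 in MYH3-led nuclei (2.83). With the shallow barcodes added the first ratio was 2.99, and with a stricter rule for the leading chain the second was 4.96. These levels were 43.4 times the scaled level for SEMA3A and 3.58 times for UNC5D.

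Of 45 members measured against MYH13-led nuclei, 14 were at least 2-fold higher in the MYH7-led and 5 lower, beside 13.8% and 10.2% of all genes. SEMA3D (2.92), SEMA3F (2.85), SEMA3G (2.26), NTN4 (1.40) and PLXNA4 (1.31) were among the higher ones. In MYH7-led nuclei SEMA3D rested on 12 counts and SEMA3F and SEMA3G on 8 each, against 131 for NTN4 and 67 for PLXNA4. When thinned, SEMA3D, SEMA3F and SEMA3G each had under 20 counts over both sums. With a stricter rule for the leading chain, MYH7-led nuclei held 1 count of SEMA3F, 0 of SEMA3G and 3 of SEMA3D. The SEMA3D ratio was then 4.21 (1.80 to 5.98). EPHA5 had a log2 ratio of 4.04, but 12 of its 15 counts came from 1 barcode and the level without it was 4.92 CPM. EPHB1 (76.4 against 251 CPM, -1.72), SEMA3C (185 against 602 CPM, -1.70), PLXNA2 (-1.62), SEMA4B (-1.34) and SLIT3 (-1.34) were lower, with SEMA4B at -0.36 when thinned. Against MYH3-led nuclei of EOM, 7 of 33 members were higher and 4 lower, beside 6.92% and 9.9% of all genes.

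Most MYH7-led nuclei of EOM, 122 of 161, lay in 1 cluster of 378 myonuclei. SEMA3A stood at 568 CPM in that cluster and between 17.5 and 97.4 CPM in the other 6 EOM clusters listed. Within it, SEMA3A was at 627 CPM in MYH7-led, 609 in MYH3-led, 412 in MYH13-led and 68.6 CPM in MYH15-led nuclei. The 39 MYH7-led nuclei outside it held 1 count of SEMA3A (7.13 CPM) and 3 of UNC5D (21.4 CPM). Of the summed markers of other cells, those of satellite cells stood at 429 CPM in MYH7-led nuclei against 191 over all EOM myonuclei, of lymphatic endothelium at 327 against 46.8, of neurons at 245 against 48.8, of fibro-adipogenic cells at 580 against 350.5 and of Schwann cells at 164 against 82.1. Single genes made up most of several of these lists, MEGF10 with 247 CPM of the satellite list and PROX1 with 283 CPM of the lymphatic list. SYT1 held 218 CPM of the neuron list, where SLC18A3 was at 0, and ERBB3 held 82.9 of the 164 CPM of the Schwann list. Endothelial markers stood at 332 against 293.6 CPM, mural at 56.9 against 63.2 and macrophage at 40.6 against 49.1. Their part in these levels was not tested.

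In QFM, MYH7-led nuclei held less of several guidance genes than MYH3-led nuclei. Of 44 members measured, 11 were at least 2-fold lower and 4 higher in the MYH7-led, beside 10.4% and 6.37% of all genes. SEMA6A stood at 6.27 and 28.3 CPM (log2 ratio -2.17, -2.47 to -1.89), SEMA6D at 19.5 and 65.9 CPM (-1.76), PLXNA2 at 18.7 and 55.0 CPM (-1.55) and SEMA3B at 18.0 and 49.2 CPM (-1.45). EFNB2 (4.25 and 10.1 CPM, -1.24) and UNC5D (4.74 and 10.3 CPM, -1.11) were also lower, and went under 2-fold when thinned (-0.61 and -0.78). SEMA3A, at 0.38 and 3.80 CPM (-3.31), and SLIT2 (-3.49) were low in both. SEMA3G was at 8.45 CPM in MYH7-led and 0.95 in MYH3-led nuclei (3.15, 2.50 to 3.87), and PLXNB1, PLXNA3 and EFNA4 made up the 4.

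Between the MYH7-led nuclei of the 2 muscles, 26 of 40 members were at least 2-fold higher in EOM and 0 lower, beside 28.3% and 10.6% of all genes. SEMA3A had 299 counts in EOM and 7 in QFM (10.31, 9.25 to 11.64), UNC5D 235 and 87 (6.33) and PLXNA4 67 and 39 (5.68). With TMM scaling these 3 ratios were 9.72, 5.73 and 5.08. The sums differ in size, with 161 nuclei in EOM and 2871 in QFM.

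Junctional myonuclei, called by summed neuromuscular junction markers such as CHRNE and MUSK, numbered 164 in EOM and 90 in QFM and also belong to a chain group. Since they define the group, these markers were bound to be higher in it, at 4560 CPM against 692 in other EOM myonuclei and 1808 against 223 in QFM. In EOM junctional nuclei MUSK held 2063 CPM of that sum and COLQ 1283, and RAPSN was lower than in other myonuclei (10.1 against 13.7 CPM). Myotendinous markers were also higher in the QFM group, at 593 against 117 CPM, and stood at 99.2 against 77.8 in EOM. Junctional nuclei were deeper than their library, with medians of 5052.5 and 8451.5 UMIs.

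SLIT3 was high in the junctional nuclei of EOM and had 1 count in those of QFM. In EOM it stood at 1286 CPM in junctional and 51.7 in other myonuclei (log2 ratio 4.64, 4.52 to 4.75). The 1141 counts lay in 106 of 164 nuclei, at most 52 in 1 nucleus, and the level was 23.1 times the scaled one; fibro-adipogenic markers were 387 CPM in junctional and 349 in other nuclei. Neuron markers were 150 against 45.3 CPM, mostly SYT1 at 135, Schwann markers 112 against 81.1 and lymphatic markers 82.3 against 45.6, and their part in the SLIT3 level was not tested. The SLIT3 ratio was 3.79 with called doublets kept and 3.76 with the shallow barcodes added. A UMI of SLIT3 was present in 64.6% of junctional nuclei and 13.6% of endothelial nuclei, or in 45.7% and 4.63% after thinning to 1000 UMIs, which left out 0 and 41 shallower nuclei. Endothelial nuclei of EOM are low in SLIT3, at 91.7 CPM. Fibro-adipogenic nuclei held 1087 CPM and mural nuclei 2126 CPM, the latter above the junctional level. In QFM, junctional nuclei held 1 count of SLIT3 (1.27 CPM) and other myonuclei 323 (7.91 CPM), and between the muscles the junctional log2 ratio was 9.99 (7.51 to 15.29). It was 7.78 with called doublets kept and 7.04 when thinned.

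**Figure D3:**
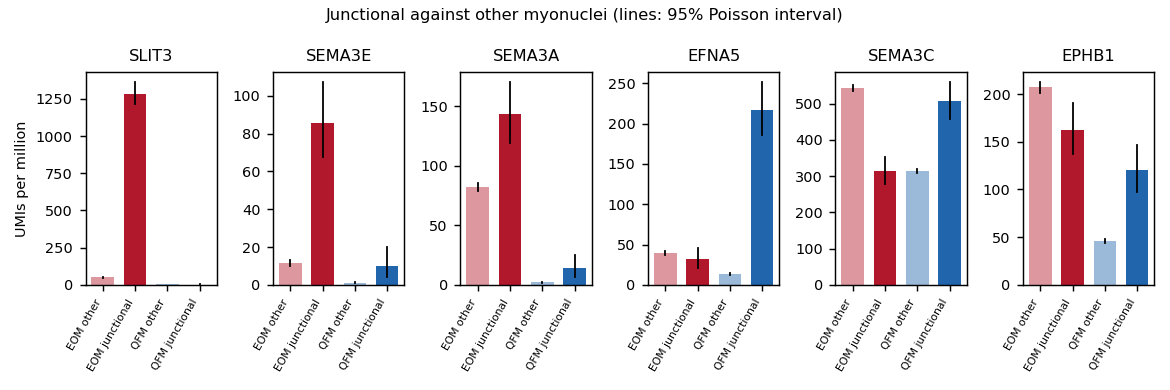
CPM of 6 guidance genes in junctional (dark) and other (pale) myonuclei of EOM (red) and QFM (blue); bars are sums over 1 library, lines 95% Poisson intervals, and each panel has its own axis from 0. SLIT3 stands at 1286 CPM in EOM junctional nuclei and at 1.27 CPM in those of QFM, while EFNA5 is highest in QFM junctional nuclei at 217 CPM.

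Over all members, 8 of 44 were at least 2-fold higher and 3 lower in EOM junctional nuclei, beside 7.81% and 9.28% of all genes. SEMA3E had 85.7 against 11.5 CPM (2.90), though 25 of its 76 counts came from 1 nucleus and the level without it was 57.9 CPM. UNC5D (9.02 against 38.1 CPM, -2.08), SEMA3B (-1.49) and SEMA4B (-1.47) were lower. UNC5D was -0.98 with called doublets kept.

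In QFM, 11 of 34 members were higher and 4 lower in junctional nuclei, beside 12.2% and 7.17% of all genes. EFNA5 had 217 against 13.2 CPM (4.04, 3.78 to 4.29), with 73 of 171 counts in 1 nucleus and 127 CPM without it. EPHA4 had 34 counts (5.23), of which 31 lay in 1 nucleus, and the level without it was 3.91 CPM. UNC5D (30.4 against 7.37 CPM, 2.04), NRP1 (73.4 against 23.0 CPM, 1.68), EPHB4 (1.48) and EPHB1 (120 against 45.7 CPM, 1.40) were higher, and SEMA3B (-1.65) and SEMA6D (-1.27) lower. When thinned, SEMA6D (-0.53) and EPHB4 (0.96) went under 2-fold. Between the junctional nuclei of the muscles, 10 of 22 members were higher and 5 lower in EOM, beside 19.5% and 14.7% of all genes. EFNA5 was lower in EOM (31.6 against 217 CPM, -2.78) and SEMA3A higher (143 against 13.9 CPM, 3.36, or 1.06 when thinned).

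Outside the fibre, members were spread over the classes. Of members with enough counts to place, EOM had 10 with their highest level in Schwann, 9 in endothelial, 9 in mural, 7 in fibro-adipogenic, 6 in satellite, 5 in macrophage and 4 in myonuclei. In QFM the numbers of members placed were 10, 12, 4, 8, 7, 6 and 2 for the same classes. Of 47 members placed in both, 27 had the same class. Endothelial nuclei were highest in both muscles for EFNB2, EPHA4, EPHB4, PLXNA4, PLXND1, SEMA3F, SEMA3G and EFNA4, which include the arterial ligand EFNB2 with its venous receptor EPHB4 and the vascular receptor PLXND1. Satellite nuclei were highest for NTN1, SEMA4G and UNC5D, mural nuclei for NTN4, SLIT3 and EPHA2, macrophages for NRP2, PLXNB2, SEMA4A and SEMA6A, fibro-adipogenic nuclei for SEMA3C, EPHA3 and EPHB2, Schwann nuclei for DCC, SLIT2, SEMA3B, SEMA4B and PLXNA3, and myonuclei for EPHA6. In Schwann nuclei PLXNA3 rested on 5 counts in EOM and 3 in QFM, and SEMA4B on 13 and 5. EPHA6 was close to a tie, at 6.96 CPM in EOM myonuclei against 5.73 in Schwann nuclei, from 2 counts. In QFM it stood at 3.80 CPM against 3.62 in macrophages.

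**Figure D4:**
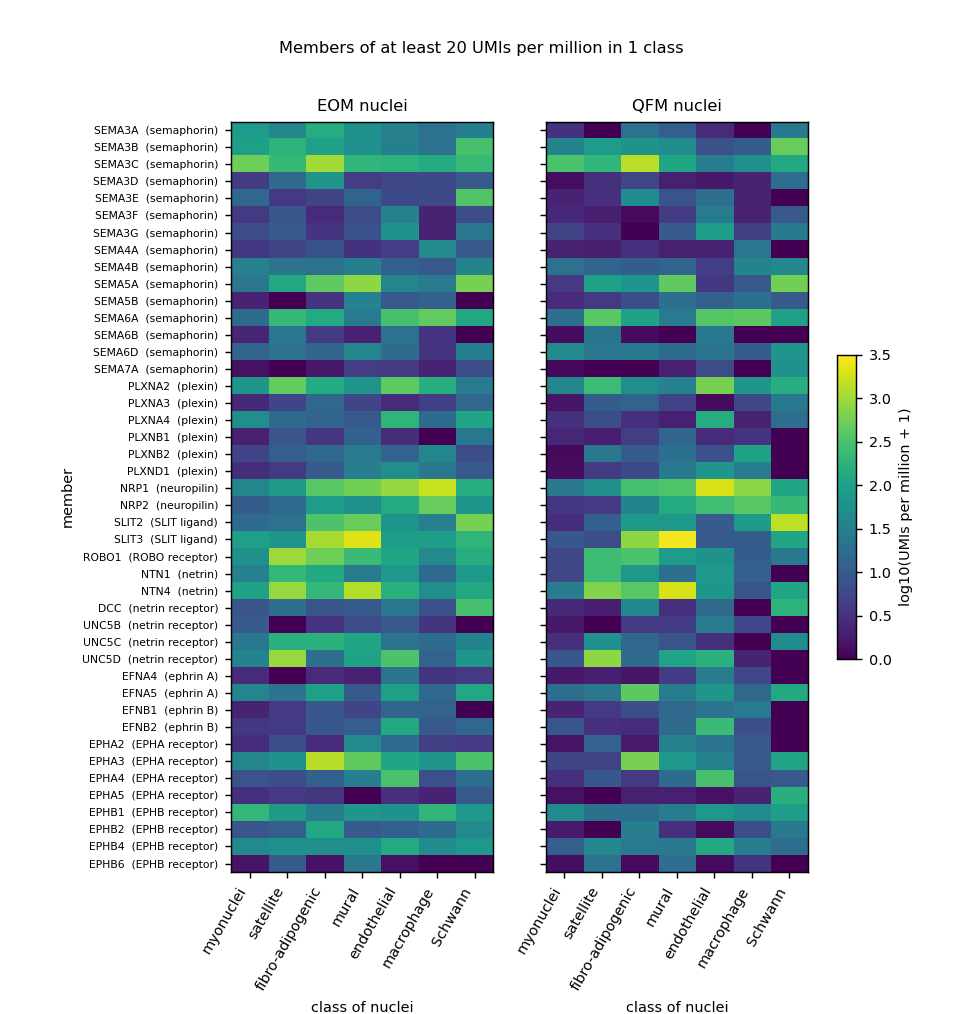
Levels of the 44 guidance genes with at least 20 CPM in 1 or more classes, as log10 of CPM plus 1, by class of nuclei in EOM (left) and QFM (right); each square is 1 sum over 1 library. SLIT3 and NTN4 are brightest in mural nuclei of both muscles, and UNC5D in satellite nuclei, at 916 CPM in EOM and 813 in QFM.

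Between the muscles, 5 classes besides myonuclei held at least 50 barcodes in both libraries. Of 162 pairs of a member and a class that were measured, 54 were at least 2-fold higher in EOM (33.3%), 17 at least 2-fold lower (10.5%) and 91 between, beside 12.3% and 11.9% of 54915 pairs over all genes. Of the 54 higher pairs, 31 stood at 2 or more times the scaled level of the other classes and 23 below it, and of the 17 lower pairs 16 and 1.

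**Figure D5:**
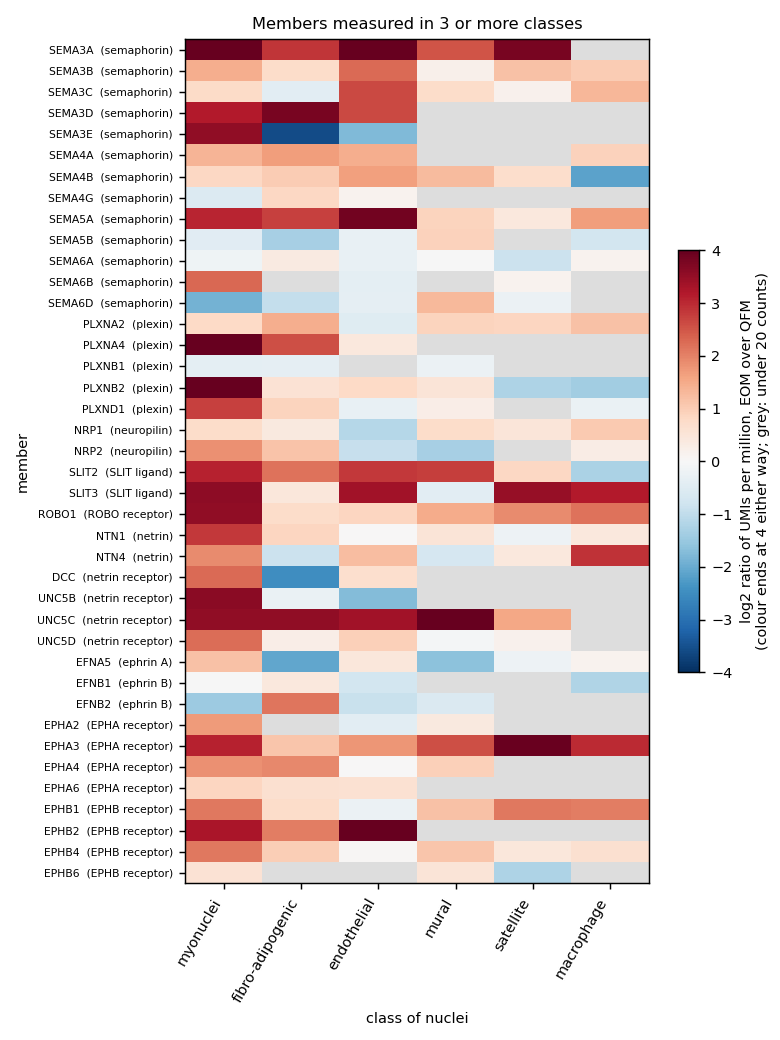
Log2 ratio of CPM, EOM over QFM, for the 40 guidance genes measured in 3 or more classes; each square compares 1 library with 1 library, the colour scale ends at 4 either way and grey marks under 20 counts. SEMA3A is red in every class where it was measured, whereas NRP1 is blue in endothelial nuclei (-1.14) and red in macrophages (1.05).

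Fibro-adipogenic nuclei, the stromal cells of muscle, numbered 1400 in EOM and 1011 in QFM. Of 42 members measured, 15 were higher and 6 lower in EOM, beside 12.9% and 13.8% of all genes, and 13 of the 15 stood at 2 or more times the scaled level. SEMA3D had 64.7 and 4.62 CPM (log2 ratio 3.81, 3.12 to 4.58), UNC5C 169 and 14.4 CPM (3.55), SEMA3A 146 and 20.04 CPM (2.86), SEMA5A 424 and 63.5 CPM (2.74), SLIT2 335 and 73.7 CPM (2.18) and EPHB2 123 and 30.1 CPM (2.03). EPHA3 was at 1328 and 610 CPM (1.12). EFNA5 was the reverse, at 97.5 CPM in EOM and 411 in QFM (-2.07, -2.23 to -1.92), as was SEMA3E at 4.22 and 50.1 CPM (-3.57). DCC, at 7.50 and 42.4 CPM (-2.50), did not keep its direction when classes were taken from clusters (0.05).

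Endothelial nuclei numbered 1315 and 973. Of 43 members 13 were higher and 3 lower in EOM, beside 15.8% and 6.97% of all genes, and only 3 of the 13 stood at 2 or more times the scaled level. NRP1, a co-receptor for vascular growth factor and SEMA3A, was lower in EOM, at 882 and 1942 CPM (-1.14, -1.19 to -1.08), and UNC5B, a vascular netrin receptor, had 8.41 and 27.8 CPM (-1.73). NRP1 was under 2-fold with called doublets kept (-0.89) and with classes from clusters (-0.92). SEMA3A (32.2 and 1.74 CPM, 4.21), SEMA5A (39.3 and 2.73 CPM, 3.85), SLIT3 (91.7 and 8.94 CPM, 3.36), UNC5C (20.4 and 1.99 CPM, 3.36), SLIT2 (64.8 and 9.19 CPM, 2.82) and SEMA3C (180 and 28.8 CPM, 2.64) were higher. Fibro-adipogenic markers stood at 8.41% of their own class in EOM endothelial nuclei and at 2.22% in QFM, SLIT3 was at 1.004 times the scaled level and SLIT2 at 2.30. With called doublets kept, SLIT3 had a log2 ratio of 1.65 and SEMA3C of 1.06, and when thinned UNC5C had 1.09.

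Mural nuclei, of pericytes and vascular smooth muscle, numbered 264 and 234. Of 30 members 9 were higher and 2 lower in EOM, beside 12.3% and 12% of all genes, with 8 of the 9 at 2 or more times the scaled level. UNC5C had 116 and 7.02 CPM (4.05, 2.95 to 5.40), SLIT2 488 and 72.2 CPM (2.76), EPHA3 437 and 73.2 CPM (2.58), SEMA3A 56.9 and 10.03 CPM (2.50), ROBO1 240 and 86.2 CPM (1.48) and SEMA6D 39.0 and 16.04 CPM (1.28). SLIT3 and NTN4 were abundant in both muscles and did not reach 2-fold, at 2126 and 2819 CPM and at 1234 and 1953 CPM. NRP2 (55.7 and 139 CPM, -1.32) and EFNA5 (8 and 28 counts, -1.65) were lower in EOM, EFNA5 at 1.08 times the scaled level. With called doublets kept, SEMA6D (0.71), NRP2 (-0.85) and EFNA5 (-0.81) were all under 2-fold.

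Satellite nuclei, of the muscle stem cells, numbered 266 and 341. Of 24 members 7 were higher and 2 lower in EOM, beside 9.46% and 14.1% of all genes. ROBO1 had 972 and 260 CPM (1.90, 1.69 to 2.11), 11.7 times the scaled level, UNC5C 164 and 55.9 CPM (1.55) and SEMA3B 184 and 81.5 CPM (1.18). SEMA3A, known from satellite cells after injury, had 28 counts in EOM and 0 in QFM, a log2 ratio of 3.81 with the 0 taken at 3 counts, and stood at 1.69 times the scaled level. EPHA3 (3.94) and SLIT3 (3.49) were at 0.30 and 0.40 times, and EPHB1 (2.09) at 1.33. UNC5D, at 916 and 813 CPM, and NTN1, at 215 and 248 CPM, differed by less than 2-fold. PLXNB2 (7 and 25 counts, -1.25) and EPHB6 (6 and 21 counts, -1.22) were lower in EOM, and both were -0.92 with called doublets kept. With classes from clusters PLXNB2 was -0.57.

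Macrophage nuclei numbered 342 and 230. Of 23 members 10 were higher and 4 lower in EOM, beside 9.41% and 14.1% of all genes, with 4 of the 10 at 2 or more times the scaled level. NRP1 had 1594 and 768 CPM (1.05, 0.92 to 1.19), EPHB1 202 and 48.2 CPM (2.06), NTN4 53.4 and 7.24 CPM (2.88) and PLXNA2 158 and 70.0 CPM (1.17). SLIT3 (3.18), EPHA3 (2.98), ROBO1 (2.18) and SEMA5A (1.66) stood at 1.43, 0.89, 1.44 and 1.12 times the scaled level. PLXNB2 (38.8 and 103 CPM, -1.40), SEMA4B (8.50 and 37.4 CPM, -2.14), SLIT2 (-1.28) and EFNB1 (-1.19) were lower in EOM. With called doublets kept, PLXNB2 (-0.90), SLIT2 (-0.34) and EFNB1 (-0.73) were under 2-fold, NTN4 was 1.38 and SEMA5A 3.13.

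Schwann nuclei numbered 132 in EOM and only 32 in QFM, so this class stands outside the count of pairs. Of 21 members 7 were higher and 4 lower in EOM, beside 15% and 8.63% of all genes. SEMA3E had 124 counts in EOM and 0 in QFM, a log2 ratio of 3.82 with the 0 taken at 3 counts. PLXNA4 (117 and 16.7 CPM, 2.81), ROBO1 (149 and 25.1 CPM, 2.57) and EPHA3 (318 and 109 CPM, 1.55) were higher, but with called doublets kept EPHA3 was 0.20 and ROBO1 1.24. SLIT2 was lower in EOM, at 598 and 1479 CPM (-1.30, -1.60 to -1.01), as were PLXNA2 (-2.62), NRP2 (-1.66) and EPHA5 (3 and 19 counts, -4.21).

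Whole cells of EOM gave a separate reading of the non-muscle classes, with no QFM library to set beside it. Among 792 endothelial cells, SEMA3G stood at 390 CPM, PLXND1 at 363, NRP1 at 325, EFNB2 at 269 and EFNA1 at 199. ROBO4, the endothelial ROBO receptor, had 101 CPM there and at most 5.53 CPM in the other classes. Among 1330 fibro-adipogenic cells SEMA3C stood at 976, SEMA3B at 407 and SLIT3 at 262 CPM, and among 1481 mural cells SLIT3 stood at 340 and NTN4 at 318 CPM. The 300 Schwann cells held 438 CPM of SEMA3B, 318 of SEMA3E and 109 of PLXNB3, and PLXNB3 was at or under 1.65 CPM elsewhere.

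Immune cells carried other members. The 268 neutrophils held 307 CPM of SEMA4A and 243 of PLXNC1, a receptor for SEMA7A. The 198 macrophages held 260 CPM of NRP1 and 238 of PLXND1, and the 516 T or NK cells 189 CPM of SEMA4D, the lymphocyte semaphorin CD100. SEMA3A had 51.6 CPM in fibro-adipogenic cells and 5 counts among endothelial cells. NTN3, NTN5 and EPHA10 had 0 counts in all 8 classes listed.

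Genes that act beside the members in myonuclei were followed with 2 lists. Of 50 cytoplasmic effectors, 44 had a symbol and 43 were measured, with 14 higher in EOM, 6 lower and 23 between, beside 31.2% and 10.1% of all genes. Their median log2 ratio was 0.17, against 0.35 for all genes. MICAL2, an actin-oxidising enzyme of the family that serves plexins, had 78.3 and 2.43 CPM (5.01), VAV3, a guanine nucleotide exchange factor, 88.3 and 3.94 CPM (4.49), and KALRN, an exchange factor for Rac, 964 and 212 CPM (2.18). ENAH, which extends actin filaments, stood at 115 and 575 CPM (-2.32), the kinase ROCK2 at 148 and 615 CPM (-2.06) and ARHGEF12, an exchange factor bound by B-type plexins, at 466 and 1601 CPM (-1.78).

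Of 52 other guidance ligands, receptors and partners, 48 had a symbol and 42 were measured, with 20 higher, 7 lower and 15 between, beside the same 31.2% and 10.1%, and a median of 0.85. The adhesion proteins CNTN1 (55.7 and 0.38 CPM, 7.18) and LRRC4C, a netrin-G ligand (82.7 and 1.08 CPM, 6.26), the latrophilin ADGRL3 (417 and 21.4 CPM, 4.28) and the neurotrophin receptor NTRK2 (26.0 and 3.05 CPM, 3.09) were higher in EOM. Its ligand BDNF was lower, at 12.3 and 97.9 CPM (-2.99), as were SDC2 (-1.46), RTN4 (-1.44) and TENM2 (-1.38).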

How the data were processed

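The deposited files hold whole UMI counts for each gene in each barcode, not normalized, and the headers of the nuclei tables name Cell Ranger 7.2.0. Seurat 5.2.1 is also listed per the submitters' processing notes. No source used here gives the genome build, the annotation or the use of intronic reads. The libraries held 61618999 (EOM nuclei), 72590186 (QFM nuclei) and 12248405 UMIs (EOM cells).

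Barcodes with at least 200 genes and 500 UMIs and at most 10% mitochondrial UMIs (20% in cells) were kept, and Scrublet in scanpy 1.11.5 with an expected rate of 6% removed 15.2%, 15.1% and 2.58% as doublets. Each library was clustered by itself (Leiden, resolution 1), giving 20, 20 and 17 clusters. A barcode took a class when the -log10 Poisson tail of its marker UMIs reached 4 from at least 2 markers and was 2 times the next class's. It was a myonucleus when no class reached 3 and its myofibre marker share was at least 0.5 of the library's. The class score lay between 3 and 5 for 1010 EOM and 113 QFM nuclei. Myofibre barcodes in clusters with a median depth under 60% of the library's were kept apart, a threshold set after the depths were seen. A leading chain needed 3 UMIs. Sums of 0 were taken at 3 counts.

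There was 1 library per group, so no test was made. The members and lists were chosen with earlier results of these data known. All members with at least 5 CPM are given in myonuclei. Up to 6 each way past 2-fold are given by class (at least 20 CPM) and by chain (at least 10 CPM), by size of ratio. Comparisons of MYH7-led nuclei with other EOM nuclei and between muscles, and of junctional nuclei, were added after the data were seen, and members outside these rules were named after their values were seen. The ratio and its interval were checked on simulated Poisson counts, the same kind of error that the interval assumes. Counts gathered in single nuclei, such as those of EFNA5 in QFM junctional nuclei, were not simulated and are not covered by the intervals. Python 3.11.15, scipy 1.17.1 and numpy 2.4.6 were used.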

Additional observations from a re-analysis of the deposited data

Results flagged for a closer look

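The difference between MYH7-led and MYH3-led nuclei went in opposite directions in EOM and QFM, with counting intervals that exclude 0 in both, for 5 members. Each muscle is 1 library, and the difference between the muscles was not tested. SEMA3A had a log2 ratio of 1.96 in EOM (486 against 125 CPM) and -3.31 in QFM (0.38 against 3.80 CPM). UNC5D had 2.83 in EOM (382 against 53.8 CPM) and -1.11 in QFM (4.74 against 10.3 CPM). SEMA6D had 1.47 in EOM (32.5 against 11.7 CPM) and -1.76 in QFM (19.5 against 65.9 CPM). SEMA3C had -1.47 in EOM (185 against 512 CPM) and 0.20 in QFM (341 against 297 CPM). EPHB1 had -1.04 in EOM (76.4 against 157 CPM) and 0.26 in QFM (51.9 against 43.3 CPM). The EOM sums come from 161 and 794 nuclei and the QFM sums from 2871 and 4412. In EOM, 122 of the MYH7-led and 100 of the MYH3-led nuclei lay in 1 cluster. Inside it SEMA3A was 627 against 609 CPM, UNC5D 488 against 280, SEMA6D 37.9 against 21.8, SEMA3C 141 against 115 and EPHB1 86.3 against 77.7. Outside it they were 7.13 against 68.5, 21.4 against 27.3, 14.3 against 10.6, 335 against 558 and 42.8 against 167 CPM. The part of this split in the EOM ratios was not tested. The EPHB1 ratio in EOM was under 2-fold with called doublets kept (-0.998) and when thinned (-0.59). So was the UNC5D ratio in QFM, at -0.79 and -0.78. Over all QFM myonuclei, UNC5D stood at 0.47 times its scaled level, set by satellite nuclei with 813 CPM. The part of satellite RNA in its QFM ratio was not tested. SEMA3F (1.32 and -1.93) and UNC5A (1.32 and -1.14) also differed in sign past 2-fold, with EOM intervals that include 0 and 8 counts each in MYH7-led EOM nuclei.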

How the results depend on the processing

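No paired analysis was possible because each group is 1 library, which also leaves no replicate to leave out. Values of named members were recomputed under 8 of the 10 alternative settings, the other two being count minimums. Of 962 such values, 957 kept their direction and 97 moved by over 1.5 times. Another 51 had under 20 counts, and 2 had one sum at 0 with no bound. Of 138 named ratios past 2-fold, 23 went under it in at least 1 setting. Among these 1 reversed, DCC in fibro-adipogenic nuclei, at 0.0502 with classes from clusters. Of 74 counts, 55 stayed within 1.5 times. Members lower in EOM myonuclei were 4 with median ratio and with TMM scaling and 1 with the shallow barcodes kept. Lower in MYH15-led nuclei were 5 with at least 100 counts and 19 with the shallow barcodes kept, a setting added after the data were seen, and higher were 4 with at least 1 count, 2 when thinned to 1000 UMIs and 5 with a chain of at least 10 UMIs and 60%. In QFM MYH7-led nuclei 1 was higher and 6 lower with at least 100 counts, and 1 and 4 when thinned. Pairs of member and class were 90 higher and 26 lower with at least 1 count, 30 and 7 with at least 100, 34 and 10 thinned, and 10 lower with doublets kept. Fewer members enter with at least 100 counts or thinned; the causes of the other moves were not tested.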
